A study of Mus musculus with 12 samples.

Results

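Glucose uptake, glycolysis and glycogen metabolism were followed through 37 genes, chosen by symbol as a fixed list: 4 transporters, 9 enzymes of upper glycolysis, 9 of lower glycolysis, 4 Pfkfb control enzymes and 11 genes of glycogen metabolism. The list was chosen with earlier results of these data known, so shares and p-values for it describe these data and are no independent test. The 37 genes occupy 38 of the 54949 features of the count table, because Aldoa has 2 identifiers. Of these features, 36 passed the filter on low counts and were tested. Aldoc, with 0 to 6 counts in any library, and the minor Aldoa identifier, with 1 to 14 counts, were not.

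The 12 libraries were made from poly-A RNA of ventricles, atria removed, of wild-type male C57BL/6N mice. The study asked about heart failure with preserved ejection fraction, modelled by a high-fat diet together with the nitric oxide synthase inhibitor L-NAME in the water (0.5 g/L), and used control mice on a normal diet. Treatment began at 8 weeks of age and ran for 5 weeks. The labels disagree about which libraries are which: the 6 samples whose libraries are called HF-1 to HF-6 are titled as controls, and the 6 called con-1 to con-6 are titled and described as treated. The groups are therefore named after their libraries, HF-named and con-named (n = 6 each), every fold change has HF-named on top, and no attempt was made to decide which group was treated. Whether every library had its own mouse is not stated, so the p-values rest on the spread between libraries, which may be technical. The design text gives 5 samples per group, the labels 6.

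Glucose enters a muscle cell through transporters of the Slc2a family, is trapped as a phosphate by hexokinase and is split and oxidized to pyruvate, which lactate dehydrogenase can turn into lactate. Phosphofructokinase is the main point of control, and the Pfkfb enzymes make and remove the sugar bisphosphate that activates it. Glycogen is the store of glucose in the same cells: synthase and branching enzyme build it, and phosphorylase, switched on by phosphorylase kinase, breaks it down. The adult heart burns mainly fatty acids but also expresses these enzymes, several of them as muscle-specific isozymes.

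Library totals were 14443186 to 22048689 counts. Mitochondrial transcripts took 23.93 to 27.19% of the counts in HF-named libraries and 20.95 to 24.01% in con-named libraries. The first principal component of log2 CPM (counts scaled to a common library size with TMM factors) separated the groups, and HF-named library 3 stood apart on the second, at 25.31 against -9.89 to 10.8 for the other HF-named libraries. Cardiomyocyte markers were abundant in all 12 libraries, with a summed level of 64689.6 to 71456.9 CPM in HF-named and 62806.2 to 71384.9 CPM in con-named libraries, and the 10 skeletal muscle markers summed to 3.708 to 5.123 CPM in HF-named and 4.13 to 6.144 CPM in con-named libraries. The highest level of any of those 10 in a library was 1.897 CPM, of Atp2a1.

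Among the 36 tested member features, 9 passed the threshold, a quasi-likelihood p (edgeR) under 0.05 once adjusted by Benjamini-Hochberg for all 15114 genes tested. That is 25%, against 13.3% of all genes tested, for a list that was not chosen independently of these data. In HF-named libraries 6 were higher, Pfkfb2, Phkb, Hk2, Pygb, Ugp2 and Pfkl, which is 16.7% of the members and 8.28% of all genes. A further 3 were lower, Eno3, Ldhb and Slc2a8, which is 8.33% of the members and 5.05% of all genes. The values of the groups did not overlap for 4 members (11.1%), against 5.36% of all genes: Pfkfb2 and Phkb lay above, and Eno3 and Ldhb below, every con-named library. The members had a median log2 fold change of 0.00 and all genes one of -0.01, while the median size without sign was 0.14 for the members and 0.13 for all genes. An unadjusted p under 0.05 was found for 16 members (44.4%), against 28.6% of all genes tested. These are levels in bulk tissue, where fewer cells of a type and less RNA per cell cannot be told apart.

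**Figure D1:**
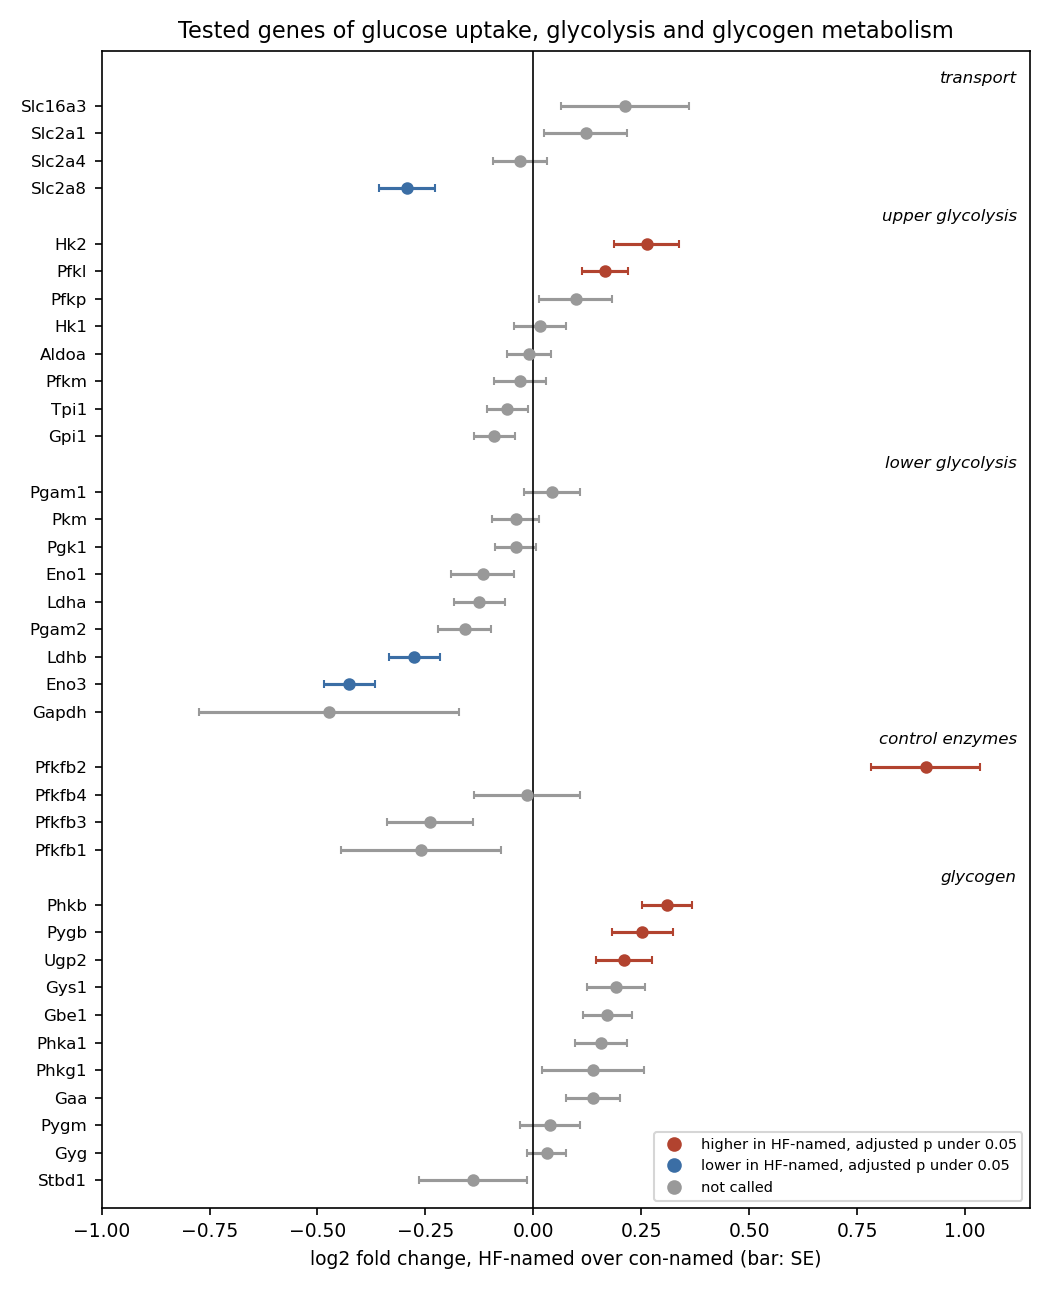
Log2 fold change (x axis, HF-named over con-named) with its SE for the 36 tested member features, in 5 groups by role from transport at the top to glycogen at the bottom; red marks members higher and blue members lower in HF-named libraries at an adjusted p under 0.05. Pfkfb2 stands alone at 0.91, 8 of 9 lower glycolysis genes lie left of 0, and 10 of 11 glycogen genes lie right of it. Over all 15114 genes tested, 7149 log2 fold changes were positive.

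The calls differed in how far they rested on single libraries and settings. Pfkfb2, Phkb, Eno3, Ldhb and Slc2a8 passed in all 21 alternative fits, which include each library left out in turn. Hk2 passed in 11 of them, Pygb in 12, Ugp2 in 8 and Pfkl in 4. The number of members called higher was 2 without HF-named library 2, 4 or 5 or con-named library 5 or 6, 3 without con-named library 4, and 8 without HF-named library 3. When libraries were scaled by their totals alone, the median over all genes moved to -0.13 on the log2 scale, and 2 members were called higher (Pfkfb2 and Phkb) and 13 lower. In the authors' deposited table, their comparison has an adjusted p under 0.05 for the same 9 members, 6 of them higher and 3 lower. That comparison is no separate check. Its log2 fold changes for Hk2 (0.2643) and Pfkl (0.1689) equal those of the DESeq2 fit among the 21 alternatives.

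Fold changes also moved with gene length over the whole table. When all 15114 genes were divided by length into 10 equal groups, the median log2 fold change was -0.09 in the shortest, of up to 1279 bases, and 0.08 in the longest, of 9553 bases or more. The share called higher in HF-named libraries was 2.71% in the shortest group and 20.9% in the longest, and the share called lower was 7.21% in the shortest and 2.58% in the longest. The 6 members called higher were 3069 to 7417 bases long and the 3 called lower 1570 to 3209 bases. Each of the 9 differed from the median of its own length group in the direction of its call. With an offset for gene length in the fit, 8 of the 9 kept an adjusted p under 0.05: Eno3 had a log2 fold change of -0.35 (adjusted p = 0.00156), Ldhb of -0.19 (adjusted p = 0.0496), and Pfkl was the one not called, at 0.15 (adjusted p = 0.0845).

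**Figure D2:**
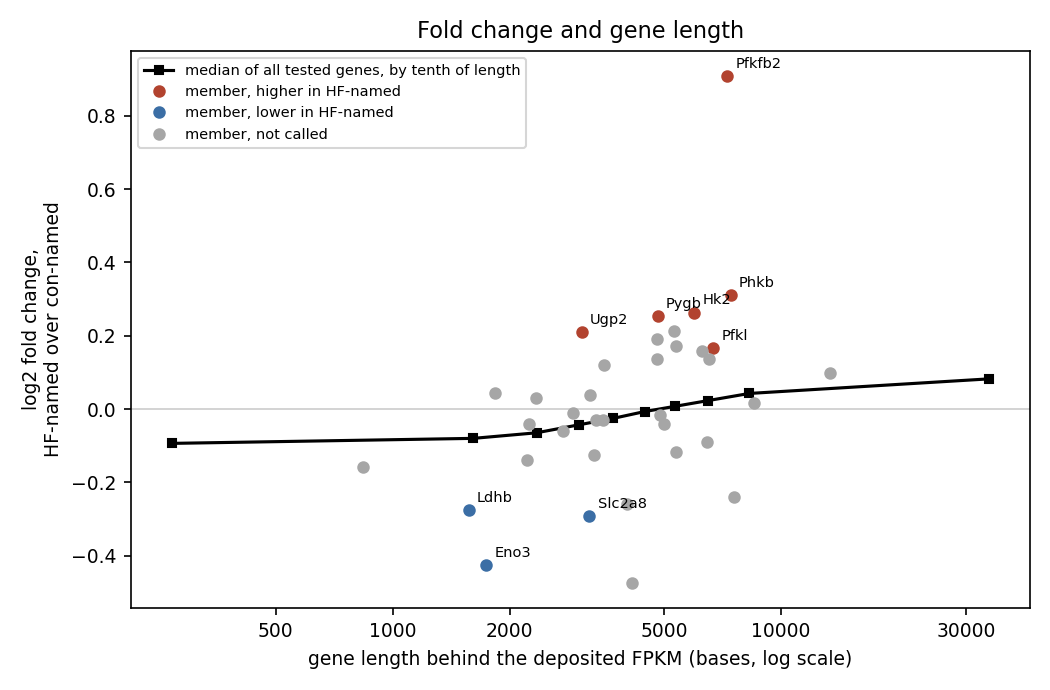
Log2 fold change (y axis, HF-named over con-named) against gene length in bases (x axis, log scale) for the tested members, coloured by call, with the median of all tested genes in 10 equal groups by length as black squares joined by a line. The black line climbs from -0.09 to 0.08, and all 9 called members lie farther from 0 than the line beside them.

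Among the control enzymes, Pfkfb2 changed most of all 36 tested member features. It encodes the heart isoform of the enzyme that both makes and removes the activator of phosphofructokinase. Pfkfb2 (ENSMUSG00000026409, chr1:130689182-130729253, minus strand, mm10) was at 72.4 to 132.3 CPM (median 81.43) in HF-named libraries and at 38.78 to 52.89 CPM (median 51.16) in con-named libraries. Every HF-named library was above every con-named one, and the difference was 1.88-fold (log2 fold change 0.91, SE 0.13, adjusted p = 0.000678). Pfkfb2 shares 17.4% of its exon bases with Gm29427 on the same strand, a gene with 295 counts over the 12 libraries against 13943 for Pfkfb2. No other Pfkfb gene passed the test. Pfkfb1, the liver and muscle isoform, was at 10.83 to 28.55 CPM in HF-named and 18.87 to 30.42 CPM in con-named libraries (log2 fold change -0.26, SE 0.19, adjusted p = 0.384), with a coefficient of variation of 33.7% within HF-named libraries alone. Pfkfb3, the inducible isoform, was at 13.91 to 23.16 CPM in HF-named and 19.53 to 24.76 CPM in con-named libraries (log2 fold change -0.24, adjusted p = 0.119; 0.0288 without HF-named library 3). Pfkfb4 was the scarcest, with medians of 4.805 CPM in HF-named and 4.705 CPM in con-named libraries (log2 fold change -0.02, adjusted p = 0.951).

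**Figure D3:**
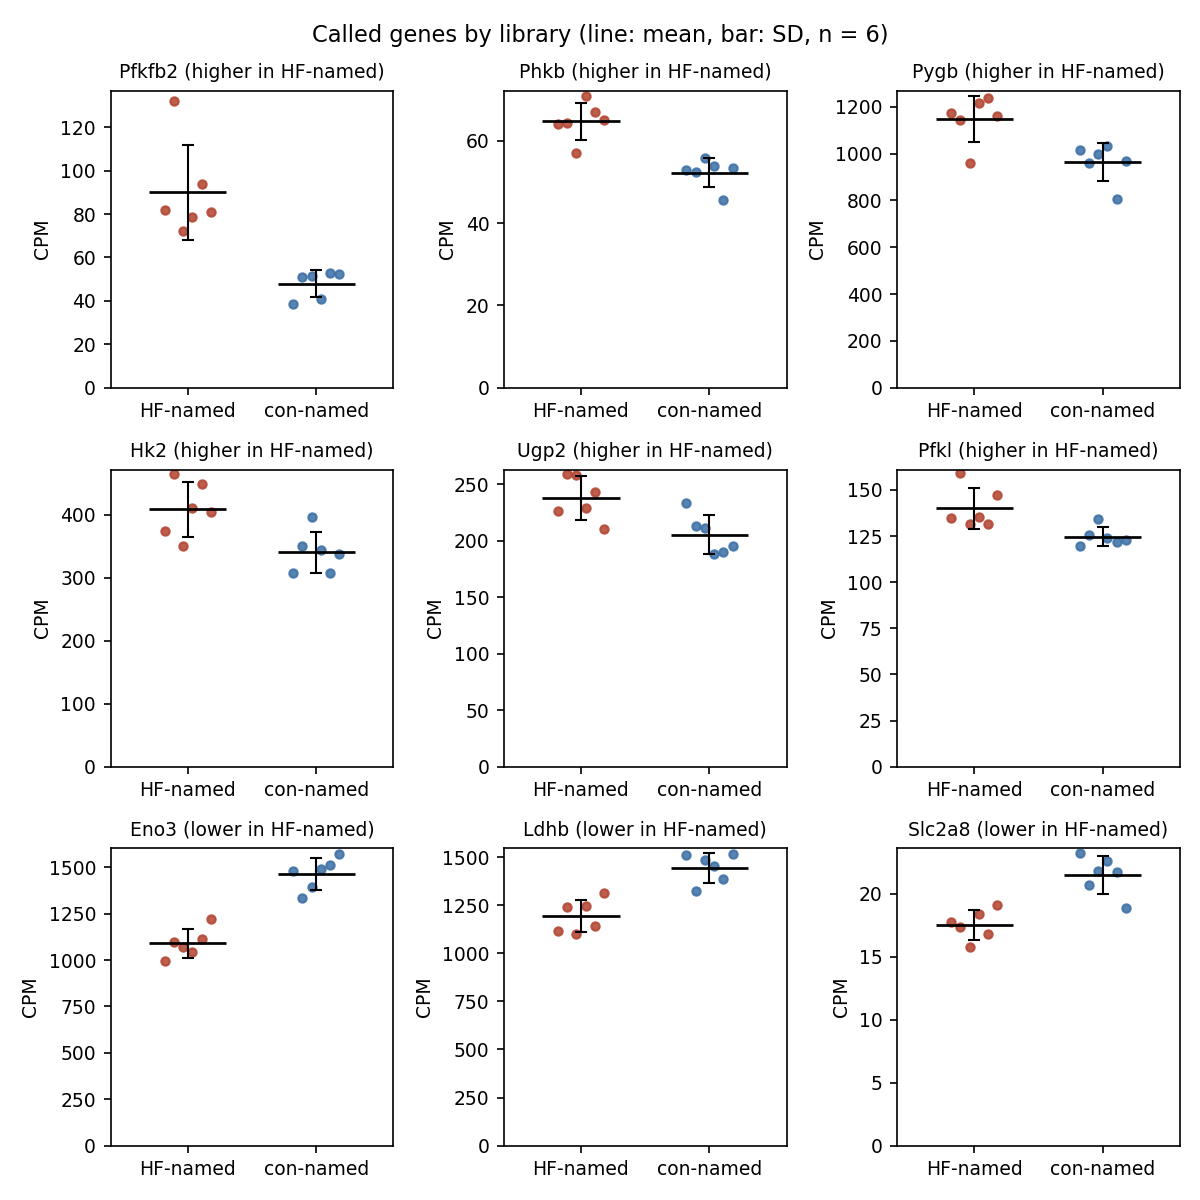
CPM (y axis, from 0) of the 9 called members in the 6 HF-named libraries (left, red) and the 6 con-named libraries (right, blue); each point is a library, the line is the mean and the bar the SD. Pfkfb2, Phkb, Eno3 and Ldhb show no overlap between the groups, and in the other 5 panels at least 1 HF-named library lies within the con-named range.

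The promoters of these 4 members without overlap are shown because they carry the clearest differences. Each runs from 250 bases before to 50 bases after the annotated start, in RefSeq on GRCm38.p6, the assembly of mm10, and is written in the direction of the gene. Capitals mark matches, on either strand, to 6 motifs. The E-box is CACGTG, and the core of the hypoxia response element is ACGTG, which every E-box contains on both strands. The box bound by Sp-family factors is GGGCGG, and the letters of the box bound by the TATA-binding protein are TATAAA. A site of estrogen-related receptors is AAGGTCA. The last motif fixes only the outer letters of a MEF2 site, 3 at each end, as the capitals in the Ldhb promoter show. It allows any 4 letters in the gap between them, so a match need not be a MEF2 site. Of the 3 starts listed for Pfkfb2, the one with the E-box is shown.
Pfkfb2, chr1:130715772-130716071, minus strand: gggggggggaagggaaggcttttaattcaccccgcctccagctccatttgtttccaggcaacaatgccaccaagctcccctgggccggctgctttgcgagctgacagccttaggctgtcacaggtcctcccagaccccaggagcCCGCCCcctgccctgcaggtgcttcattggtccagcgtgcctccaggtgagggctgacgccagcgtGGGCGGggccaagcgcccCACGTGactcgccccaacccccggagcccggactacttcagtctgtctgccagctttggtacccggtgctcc
Phkb, chr8:85840738-85841037, plus strand: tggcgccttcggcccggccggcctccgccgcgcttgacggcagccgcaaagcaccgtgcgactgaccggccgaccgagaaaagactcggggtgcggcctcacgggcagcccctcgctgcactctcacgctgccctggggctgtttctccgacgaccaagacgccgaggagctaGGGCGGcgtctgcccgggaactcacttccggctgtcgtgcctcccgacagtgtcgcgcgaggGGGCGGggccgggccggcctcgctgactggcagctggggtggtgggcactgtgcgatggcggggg
Eno3, chr11:70656926-70657225, plus strand: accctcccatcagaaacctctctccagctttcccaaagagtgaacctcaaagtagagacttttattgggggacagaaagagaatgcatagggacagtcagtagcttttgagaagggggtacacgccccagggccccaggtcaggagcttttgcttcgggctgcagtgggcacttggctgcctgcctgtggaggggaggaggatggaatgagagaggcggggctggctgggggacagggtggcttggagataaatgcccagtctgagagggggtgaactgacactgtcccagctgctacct
Ldhb, chr6:142507908-142508207, minus strand: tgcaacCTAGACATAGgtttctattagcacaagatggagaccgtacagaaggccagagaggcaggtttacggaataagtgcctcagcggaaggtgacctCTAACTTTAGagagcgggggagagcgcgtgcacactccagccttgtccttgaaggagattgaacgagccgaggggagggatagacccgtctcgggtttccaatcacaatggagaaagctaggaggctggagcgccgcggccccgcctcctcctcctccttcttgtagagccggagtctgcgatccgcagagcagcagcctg

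The Pfkfb2 window shown holds CACGTG 22 bases before its start and GGGCGG 106 and 40 bases before it. The window of another Pfkfb2 start holds only ACGTG, 172 bases before that start. The remaining Pfkfb2 window holds none of the 6 motifs. The Phkb promoter holds GGGCGG 77 and 15 bases before its start. The Ldhb promoter matches the gapped MEF2 motif 244 and 151 bases before its start. Both matches have G or C among the letters of the gap, and neither is shown to be a MEF2 site. The Eno3 window has none of the 6 motifs. Over 54 promoters of 36 member genes (Slc2a4 has no entry), CACGTG was in 11.1%, against 7.15% of all 32851 promoters. The shorter ACGTG was in 42.6% of member promoters and 19.6% of all. GGGCGG was in 53.7% of member promoters and 35.7% of all, and TATAAA in 3.7% of member promoters and 13.6% of all. The gapped MEF2 motif was in 3.7% of member promoters and 3.69% of all, and AAGGTCA in 5.56% of member promoters and 4.72% of all. A match is a stretch of letters and not a measured site, and promoters of 1 gene overlap.

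In lower glycolysis, where sugar phosphates become pyruvate and lactate, 2 of the 9 genes fell and none rose. Over all genes tested, 5.05% were called lower and 8.28% higher. The median log2 fold change was -0.12, and 8 of 9 were below 0, against 7965 of all 15114 genes tested. Eno3, the muscle enolase, is encoded at chr11:70657202-70662513 (plus strand). It was at 995.4 to 1221.5 CPM (median 1082.8) in HF-named libraries and at 1336.4 to 1571.8 CPM (median 1486.0) in con-named libraries. All 6 HF-named libraries were below every con-named one, and Eno3 was lower by 25.6% (log2 fold change -0.43, SE 0.06, adjusted p = 0.000678). Ldhb, the lactate dehydrogenase subunit typical of heart, is encoded at chr6:142490249-142507957 (minus strand). Its level was 1102.4 to 1313.7 CPM (median 1192.6) in HF-named libraries and 1321.1 to 1517.4 CPM (median 1468.3) in con-named libraries. Again no values overlapped, though the highest HF-named and the lowest con-named library were close, and the log2 fold change was -0.28 (SE 0.06, adjusted p = 0.00704).

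The other lower glycolysis genes did not pass. Pgam2, the muscle phosphoglycerate mutase, was at 319.3 to 378.3 CPM in HF-named and 346.4 to 427.3 CPM in con-named libraries (log2 fold change -0.16, SE 0.06, adjusted p = 0.0986). Ldha, the lactate dehydrogenase subunit typical of skeletal muscle, had medians of 563 CPM in HF-named and 617.4 CPM in con-named libraries. While 5 of 6 HF-named libraries were below every con-named one, HF-named library 6, at 653.5 CPM, was above the con-named highest of 640.9 CPM. The log2 fold change of Ldha was -0.12 (adjusted p = 0.174, and 0.0452 without HF-named library 6). Eno1, the enolase of most tissues, had medians of 128.8 CPM in HF-named and 138.2 CPM in con-named libraries (log2 fold change -0.12, adjusted p = 0.31). Pkm, the pyruvate kinase of muscle, and Pgk1, phosphoglycerate kinase, both had log2 fold changes of -0.04 (adjusted p = 0.668 for Pkm, and medians of 327.9 CPM in HF-named and 339.1 CPM in con-named libraries for Pgk1, which was not called), and Pgam1, the mutase of most tissues, one of 0.04 (adjusted p = 0.702). Summed over the 9 genes, lower glycolysis came to 4425.0 to 5289.6 CPM in HF-named and 5156.7 to 5862.3 CPM in con-named libraries, a sum in which Ldhb, Eno3 and Pkm weigh most.

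The Gapdh row, glyceraldehyde phosphate dehydrogenase, held few counts for an enzyme of this pathway: 3886 over 12 libraries. Its level was 7.443 to 22.91 CPM in HF-named and 11.32 to 43.67 CPM in con-named libraries (log2 fold change -0.47, SE 0.30, adjusted p = 0.322), and its coefficient of variation was 35.8% in HF-named and 55.2% in con-named libraries, against medians over the tested members of 8.08% in HF-named and 7.75% in con-named libraries. Annotated transcripts of 78 other features, 75 of them pseudogenes, match a Gapdh transcript at 95% identity or more over at least 200 bases, and their rows held 65303 counts. Gm5559 alone had 43.2% of the combined counts, Gm7336 40.3%, and the Gapdh row 5.62%. Row and copies together were at 257.7 to 329.5 CPM (median 300.8) in HF-named libraries and at 326 to 404.1 CPM (median 372.8) in con-named libraries. That sum, formed after the counts had been seen, differed by -0.29 on the log2 scale (exact permutation test of 6 against 6 libraries, two-sided, p = 0.00649). Which of these counts came from Gapdh transcripts cannot be told apart here. Near-identical copies were also found for Eno1, Gpi1, Ldha, Ldhb, Pgam1, Pgk1, Pkm and Tpi1, with 1 to 4 copies each and at most 2060 counts on them, those of Pkm, which itself had 225573. Apart from Pfkfb2, the members with the largest share of their exon bases in an overlapping gene were Pkm (15.3%), Gpi1 (11.5%), Pfkm (10.2%) and Phkg1 (9.7%), and reads in shared bases may belong to either gene.

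**Figure D4:**
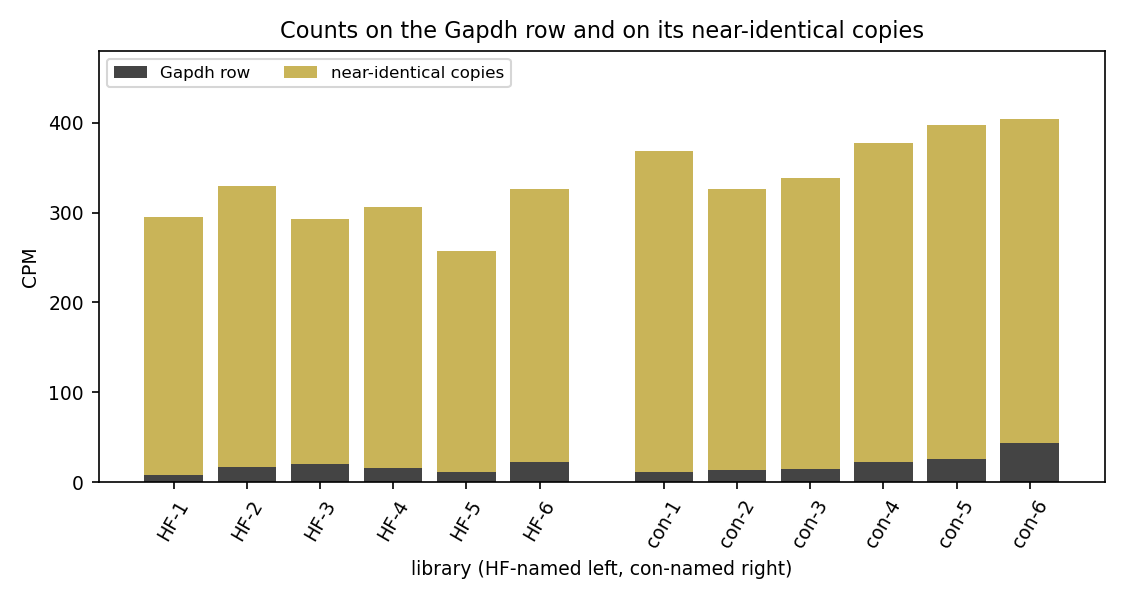
CPM (y axis) on the Gapdh row (dark) and on its 78 near-identical copies (yellow), stacked, in the 6 HF-named libraries on the left and the 6 con-named libraries on the right. The dark part is at most 43.67 CPM, and the stacked height is 257.7 to 329.5 CPM in HF-named and 326 to 404.1 CPM in con-named libraries.

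In upper glycolysis, from glucose to the triose phosphates, 2 of the 8 tested genes rose and none fell. All genes tested had 8.28% called higher and 5.05% lower. The median log2 fold change of the 8 was 0.00. Hk2, the insulin-responsive hexokinase, is encoded at chr6:82725025-82774454 (minus strand). It was at 349.7 to 464 CPM (median 407.2) in HF-named libraries and at 306.9 to 395.7 CPM (median 341) in con-named libraries. Of the HF-named libraries, 4 exceeded the con-named range (log2 fold change 0.26, SE 0.08, adjusted p = 0.0303). The adjusted p of Hk2 reached 0.0755 when single libraries were left out and was above 0.05 without HF-named library 2, 4 or 5 or con-named library 1, 4, 5 or 6. Hk1, the hexokinase of most tissues, had medians of 170.7 CPM in HF-named and 173.1 CPM in con-named libraries (log2 fold change 0.02, adjusted p = 0.89), and its sign was negative under library totals and with the length offset.

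Pfkl, the liver-type phosphofructokinase (chr10:77986947-78010083, minus strand), was at 131.5 to 159.1 CPM (median 135) in HF-named libraries and at 119.8 to 134 CPM (median 123.4) in con-named libraries. Here too 4 HF-named libraries lay above the con-named range, but the call was marginal (log2 fold change 0.17, SE 0.05, adjusted p = 0.0483), and leaving out any of 10 of the 12 libraries, all but HF-named 3 and con-named 3, raised it above 0.05, to at most 0.108. Pfkm, the muscle type, was far more abundant, with medians of 1093.7 CPM in HF-named and 1097.3 CPM in con-named libraries (log2 fold change -0.03, adjusted p = 0.778), and Pfkp, the platelet type, had medians of 61.5 CPM in HF-named and 58.76 CPM in con-named libraries (log2 fold change 0.10, adjusted p = 0.484). Aldoa, the muscle aldolase and the most abundant gene of upper glycolysis, was at 2184.9 to 2357.5 CPM (median 2263.2) in HF-named and 2107.6 to 2445.5 CPM (median 2292.0) in con-named libraries. Its ranges lay one within the other (log2 fold change -0.01, SE 0.05, adjusted p = 0.925), and its coefficient of variation of 2.72% in HF-named libraries was the smallest of the tested members. Gpi1, glucose phosphate isomerase, had medians of 461.5 CPM in HF-named and 493.5 CPM in con-named libraries (log2 fold change -0.09, adjusted p = 0.215), and Tpi1, triose phosphate isomerase, of 558.6 CPM in HF-named and 589.6 CPM in con-named libraries (log2 fold change -0.06, adjusted p = 0.431). Aldoc, the brain aldolase, had at most 0.2897 CPM in HF-named and 0.3336 CPM in con-named libraries.

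Of the 4 transporters, 1 fell and none rose, against 5.05% of all genes called lower and 8.28% called higher. Slc2a8, which encodes the mainly intracellular transporter GLUT8 (chr2:32972990-32982083, minus strand), was at 15.77 to 19.16 CPM (median 17.56) in HF-named libraries and at 18.91 to 23.24 CPM (median 21.78) in con-named libraries. All but 1 HF-named library lay below the con-named range, and the level was lower by 18.3% (log2 fold change -0.29, SE 0.06, adjusted p = 0.00819). Slc2a4, the insulin-responsive GLUT4 and by far the most abundant of the 4, was at 283.2 to 364.1 CPM (median 335.7) in HF-named and 317.2 to 365.5 CPM (median 336) in con-named libraries (log2 fold change -0.03, SE 0.06, adjusted p = 0.788). The medians of Slc2a4 differed by less than the spread within either group. Slc2a1, the basal transporter GLUT1, had medians of 15.1 CPM in HF-named and 13.38 CPM in con-named libraries (log2 fold change 0.12, adjusted p = 0.438), and Slc16a3, the lactate exporter MCT4, of 2.615 CPM in HF-named and 2.31 CPM in con-named libraries (log2 fold change 0.21, adjusted p = 0.375).

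Glycogen genes lay mostly above 0: 10 of 11 had a positive log2 fold change, against 7149 of all 15114 genes tested. The median of the 11 was 0.16. Of the 11, 3 passed the test, all higher in HF-named libraries, against 8.28% of all genes called higher. Phkb, the beta subunit through which phosphorylase kinase is regulated (chr8:85840959-86061376, plus strand), was at 57.16 to 70.98 CPM (median 64.62) in HF-named libraries and at 45.58 to 55.72 CPM (median 53.19) in con-named libraries. No values overlapped (log2 fold change 0.31, SE 0.06, adjusted p = 0.00332). The other subunits did not pass: Phka1, the muscle alpha subunit, had medians of 43.82 CPM in HF-named and 37.78 CPM in con-named libraries (log2 fold change 0.16, adjusted p = 0.0941), and Phkg1, the muscle catalytic subunit, of 35.4 CPM in HF-named and 33.33 CPM in con-named libraries (log2 fold change 0.14, adjusted p = 0.476). Phka1 passed without HF-named library 3 (adjusted p = 0.0483) and without con-named library 3 (adjusted p = 0.0253).

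Pygb, the brain-type glycogen phosphorylase, which heart muscle also makes (chr2:150786735-150831758, plus strand), was at 960.2 to 1237.1 CPM (median 1167.3) in HF-named libraries and at 806.2 to 1034.6 CPM (median 982.6) in con-named libraries. HF-named library 3 was the only one of its group within the con-named range (log2 fold change 0.25, SE 0.07, adjusted p = 0.0276). The call was lost, with an adjusted p of up to 0.0674, without HF-named library 1, 2, 4 or 5 or con-named library 5 or 6. Pygm, the muscle phosphorylase and the most abundant glycogen gene per length, was at 920.4 to 1251.6 CPM (median 1172.5) in HF-named and 1028.8 to 1185.1 CPM (median 1124.4) in con-named libraries (log2 fold change 0.04, SE 0.07, adjusted p = 0.758), with a negative sign under library totals. Ugp2, which makes the UDP-glucose that synthase uses (chr11:21321138-21371201, minus strand), was at 210.5 to 259.3 CPM (median 235.7) in HF-named libraries and at 188.3 to 232.9 CPM (median 203.3) in con-named libraries. The groups overlapped, and 3 HF-named libraries exceeded the con-named range (log2 fold change 0.21, SE 0.06, adjusted p = 0.0406). The call on Ugp2 was lost, with an adjusted p of up to 0.108, in 9 of the 12 fits that left out a library: all but those without HF-named 1 or 6 or con-named 1.

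Gys1, the muscle glycogen synthase, had medians of 108.5 CPM in HF-named and 94.66 CPM in con-named libraries and 5 HF-named libraries above the con-named range, yet missed the threshold (log2 fold change 0.19, SE 0.07, adjusted p = 0.0665; 0.0128 without HF-named library 3). Gbe1, the branching enzyme, was close to it as well, with medians of 45.1 CPM in HF-named and 40.62 CPM in con-named libraries (log2 fold change 0.17, adjusted p = 0.0586; 0.0314 without con-named library 3). Gaa, the lysosomal glucosidase, had medians of 154.4 CPM in HF-named and 138.5 CPM in con-named libraries (log2 fold change 0.14, adjusted p = 0.158; 0.0368 without HF-named library 3). Gyg, glycogenin, which primes the chains, differed little, with medians of 133.8 CPM in HF-named and 131.9 CPM in con-named libraries (log2 fold change 0.03, adjusted p = 0.693). Stbd1, a glycogen-binding protein, was the member with a negative sign, with medians of 7.582 CPM in HF-named and 8.384 CPM in con-named libraries (log2 fold change -0.14, adjusted p = 0.499).

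Levels of different genes were compared on the deposited FPKM, which divides by gene length. By mean FPKM over the 12 libraries the order began with Ldhb at 842.2, Aldoa at 781.7 and Eno3 at 737.7, followed by Pgam2 at 439.5, Pygm at 349.5 and Pfkm at 321.6. In HF-named libraries Ldhb, at 729.3 ± 48.9 FPKM, and Aldoa, at 748.3 ± 16.8 FPKM, differed by less than the spread of Ldhb (SD, n = 6). In con-named libraries Ldhb was at 955.1 ± 23.8 FPKM and Aldoa at 815.2 ± 32.0 FPKM, farther apart than either spread (SD, n = 6). In the middle of the order stood Slc2a4 at 95.63, Hk2 at 62.4 and Pfkfb2 at 9.378 FPKM, and at the low end Pfkfb4 at 1.049 and Slc16a3 at 0.458. Muscle isozymes had the higher level per length: the median FPKM ratio of Pfkm over Pfkl was 15.05 in HF-named and 17.22 in con-named libraries, and that of Pgam2 over Pgam1 24.15 in HF-named and 28.08 in con-named libraries. For the transporters, Slc2a4 over Slc2a1 was 22.19 in HF-named and 25.71 in con-named libraries.

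A ratio of 2 genes within a library does not depend on scaling between libraries. The pairs, like the members, were chosen with earlier results of these data known. For 9 pairs with at least 10 counts in each library, log2 ratios of counts were compared by an exact permutation test, two-sided, with Benjamini-Hochberg adjustment over the 9; the smallest p this design allows is 0.00216. The ratio of Pfkfb2 to Pfkfb1 per length was 1.573 to 5.35 (median 1.982) in HF-named and 0.8397 to 1.495 (median 0.9883) in con-named libraries. It was higher in 6 of 6 HF-named libraries than in any con-named one, by 1.23 on the log2 scale (adjusted exact p = 0.00649). Eno3 over Eno1 was 21.7 to 28.92 (median 26.53) in HF-named and 29.69 to 34.41 (median 32.39) in con-named libraries, with no overlap (log2 difference -0.30, adjusted exact p = 0.00649). Pygm over Pygb was likewise below the con-named range in all 6 HF-named libraries, at 1.432 to 1.538 (median 1.486) in HF-named against 1.605 to 1.907 (median 1.75) in con-named libraries (log2 difference -0.22, adjusted exact p = 0.00649). Although HF-named library 3 had the lowest CPM of its group for both phosphorylases, the 6 HF-named ratios spanned a narrower range than the con-named ones.

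Pfkm over Pfkl was lower in HF-named libraries, 5 of 6 being below every con-named one (log2 difference -0.20, adjusted exact p = 0.0195). Hk2 over Hk1 was 2.792 to 4.091 (median 3.38) in HF-named and 2.702 to 3.127 (median 2.845) in con-named libraries, a log2 difference of 0.24 (5 of 6 above the con-named range, adjusted exact p = 0.0234), but its adjusted p was above 0.05 without HF-named library 2 (0.0506) or con-named library 4 (0.0545). Ldha over Ldhb was 0.1962 to 0.2426 (median 0.227) in HF-named and 0.1854 to 0.2196 (median 0.1995) in con-named libraries and missed the threshold (log2 difference 0.15, exact p = 0.0411, adjusted exact p = 0.0617; adjusted 0.0234 without HF-named library 4 and 0.039 without con-named library 5). Pgam2 over Pgam1 (log2 difference -0.20, adjusted exact p = 0.0724), Slc2a4 over Slc2a1 (-0.16, adjusted exact p = 0.166; 0.039 without con-named library 2) and Pfkm over Pfkp (-0.13, adjusted exact p = 0.34) did not pass. The paired genes differ in length, and the part of the length trend in these ratios was not tested.

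**Figure D5:**
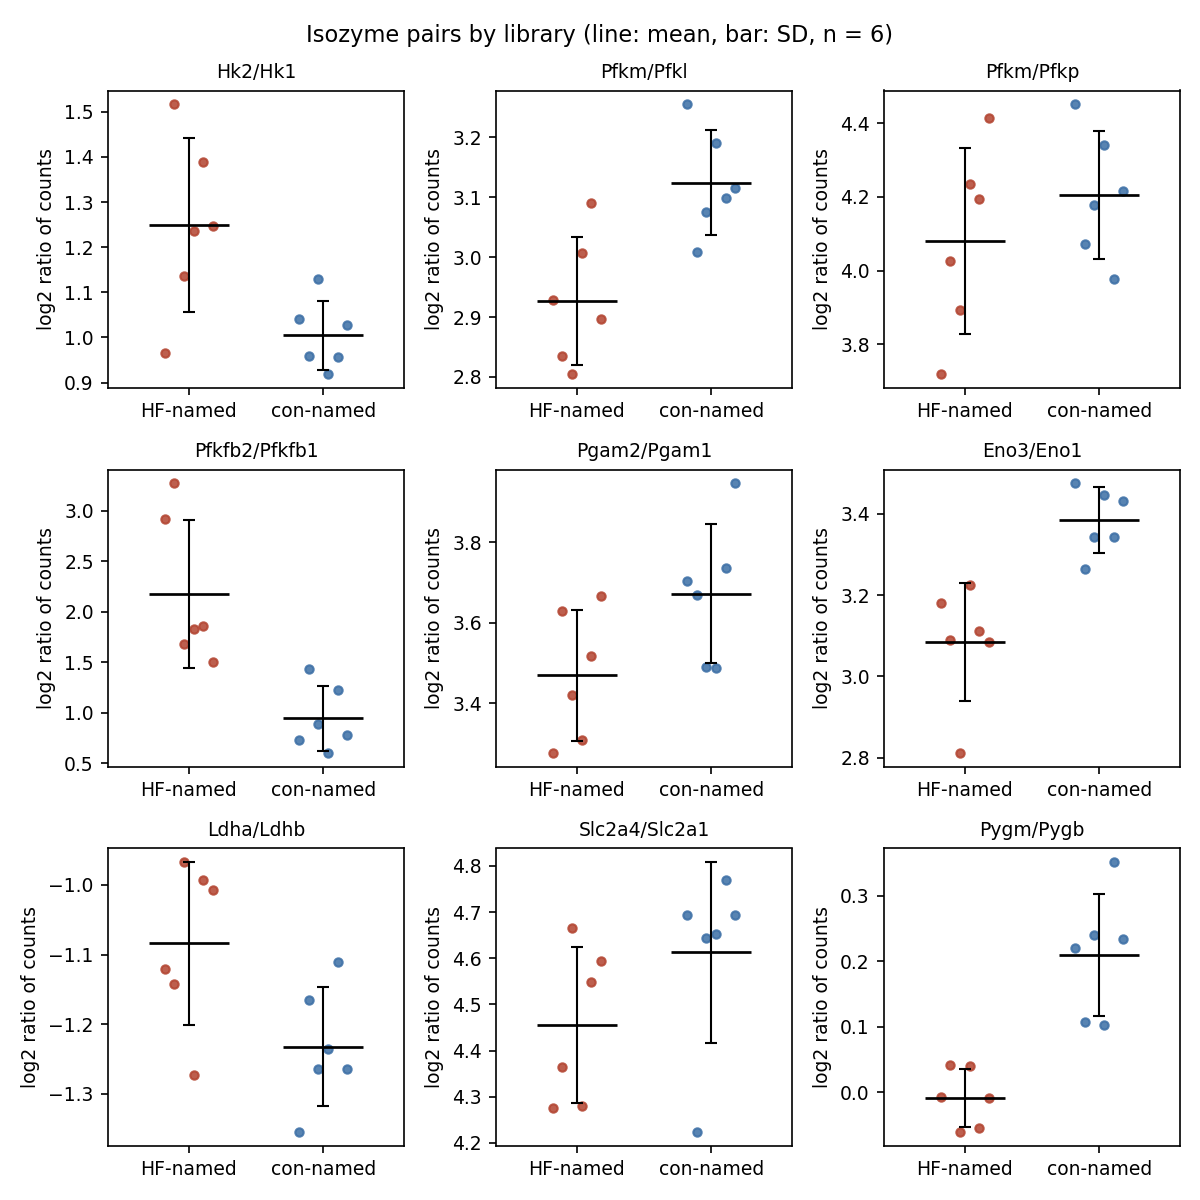
Log2 ratio of counts (y axis, own scale in each panel) of 9 isozyme pairs in the 6 HF-named libraries (left, red) and the 6 con-named libraries (right, blue); points are libraries, the line is the mean and the bar the SD. Pfkfb2/Pfkfb1, Eno3/Eno1 and Pygm/Pygb show no overlap between the groups.

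Other genes of these pathways were counted from 5 lists: of 83 tested, 12 were higher in HF-named libraries (14.5%, against 8.28% of all genes) and 3 lower (3.61%, against 5.05%), with a median log2 fold change of 0.01 against -0.01 over all genes. In the list of further glycolysis genes 4 of 11 rose and none fell. Fbp2, the muscle fructose bisphosphatase, had a log2 fold change of 0.55 (adjusted p = 0.00161), and Tigar, a phosphatase that lowers the activator made by Pfkfb enzymes, one of 0.37 (adjusted p = 0.000668). The values of Fbp2 and Tigar did not overlap between the groups.

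Of 23 further glycogen genes, 4 rose (17.4%, against 8.28% of all genes) and 1 fell (4.35%, against 5.05%). Gsk3b, a kinase that inhibits glycogen synthase, had a log2 fold change of 0.33 (adjusted p = 0.00363). Ppp1r3c, which targets a protein phosphatase to glycogen, had one of 0.45 (adjusted p = 0.00516), and Ppp1cb, a catalytic subunit of that phosphatase, one of 0.23 (adjusted p = 0.0187; not called under library totals, with the replicate block or with the length offset). Pygl, the liver phosphorylase, was the one that fell and is named after its value was seen (log2 fold change -0.33, adjusted p = 0.0368, lost in 12 of 21 alternative fits). Of 13 further transport genes 1 rose (7.69%, against 8.28% of all genes). This was Slc16a1, the lactate transporter MCT1, at 255.5 to 319.4 CPM in HF-named and 195.5 to 227.4 CPM in con-named libraries (log2 fold change 0.37, adjusted p = 0.00159).

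Of 21 genes on branches from glycolysis 2 fell (9.52%, against 5.05% of all genes). They were Gfpt2, which opens the hexosamine branch (log2 fold change -0.59, adjusted p = 0.00224), and Pgls of the pentose phosphate branch (-0.22, adjusted p = 0.0351, lost in 9 of 21 alternative fits). Of 15 transcription factors 3 rose (20%, against 8.28% of all genes): Myc (0.69, adjusted p = 0.0186), Mlxipl, the glucose-responsive factor ChREBP (0.24, adjusted p = 0.0188, not called under library totals), and Esrrg (0.28, adjusted p = 0.0405, lost in 13 of 21 alternative fits).

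Markers of some other cell types differed between the groups. For comparison, 5.05% of all genes tested were called lower in HF-named libraries and 8.28% higher. Of 10 fibroblast markers 4 were called lower in HF-named libraries, and 9 had a negative log2 fold change. Their summed level was 1122.6 to 1396.5 CPM in HF-named and 1411.5 to 1770.2 CPM in con-named libraries. Of 10 endothelial markers 3 were called lower and all 10 had a negative sign, with sums of 1224.9 to 1808.5 CPM in HF-named and 1536.0 to 1959.8 CPM in con-named libraries. Of 10 macrophage markers 4 were called lower and all 10 had a negative sign, with sums of 228.8 to 298.4 CPM in HF-named and 270.6 to 367.9 CPM in con-named libraries. None of 8 tested mural markers was called, and 6 had a positive sign. The mural sums, 1474.3 to 1674.2 CPM in HF-named and 1286.6 to 1462.7 CPM in con-named libraries, did not overlap. Rgs5 and Abcc9 weigh most in them, with means of 717.7 and 386.4 CPM in HF-named and 625.5 and 358.7 CPM in con-named libraries. Erythroid markers had 1 of 5 called higher and all 5 with a positive sign, and summed to 334.2 to 664.7 CPM in HF-named and 304.3 to 518.2 CPM in con-named libraries. Of 10 cardiomyocyte markers 1 was called higher and 4 lower, and 3 had a positive and 7 a negative sign, while their sums overlapped. The 4 atrial markers summed to 23.1 to 195.2 CPM in HF-named and 63.66 to 127.4 CPM in con-named libraries, and the 6 adipocyte markers to at most 0.3987 CPM in HF-named and 0.3158 CPM in con-named libraries. The part of these markers in the members' differences was not tested.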

How the data were processed

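Poly-A RNA was sequenced in 12 ventricle libraries, per the labels' protocols. The deposited counts are raw reads per gene. The submitters' processing notes name cutadapt 1.15, HISAT2 2.0.5, HTSeq 0.9.1 and build mm10. Which annotation release and strand setting the counting used is not given in the sources used here, so overlapping genes and near-identical copies are uncertain. The deposited FPKM values equal counts divided by library total and by 1 length per gene, for all 33411 genes checked (within 0.1%), and served only to compare levels between genes and to give lengths. The authors' own comparison, as deposited, gives log2 fold changes and adjusted p-values.

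Groups and columns were matched by library name. Genes kept by edgeR's filterByExpr (15114 of 54949 features) went with TMM factors into the quasi-likelihood test of edgeR 4.0.16 (R 4.3.3), two-sided, group being its only term. Each SE is the size of the log2 fold change over the square root of F. CPM are counts over TMM-adjusted library sizes. A count of 3, the floor, is 0.136 to 0.208 CPM, and this floor covers counting error only. The SE comes from the fit and also holds the spread between libraries. No pair of libraries within a group agreed within sampling noise (chi-square per degree of freedom 4.35 to 18.1 over 30 pairs).

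The members, gene lists, ratios and motifs were chosen with earlier results of these data known. Given in full were the called members and, in each of the 5 groups by role, the most abundant member and the one of smallest p; of the other lists, at most 3 called genes each, by smallest p. Locations and copies are from GENCODE M21 on mm10. Alternatives were RLE size factors, library totals, no filter beyond 1 count, a minimum of 1 CPM in 6 libraries, a replicate block, limma-voom (limma 3.58.1), DESeq2 1.42.0, no mitochondrial transcripts or unnamed features, and each library left out. The length offset (a spline with 5 degrees of freedom per library) and the Gapdh sum were added after the data were seen.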

Additional observations from a re-analysis of the deposited data

Results flagged for a closer look

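Within a group of 6, a library was singled out when its gap to the nearest other library was larger, as a part of the group's whole range on the log2 CPM scale, than the critical value of Dixon's ratio. This happened in 7 of the 72 groups of values tested; chance gives such a gap in about 5% of groups. HF-named library 3 accounted for 3 of them, as the lowest of its group. Pygm was at 920.4 CPM there, against 1153.4 to 1251.6 CPM in the other HF-named libraries. Pygb was at 960.2 CPM, against 1143.3 to 1237.1 CPM, and Gpi1 at 426.2 CPM, against 458.2 to 474.4 CPM. Con-named library 5 was the lowest of its group for Pygb, at 806.2 CPM against 961.8 to 1034.6 CPM in the other con-named libraries, and for Phkb, at 45.58 CPM against 52.34 to 55.72 CPM. Without con-named library 5 the call on Phkb was kept and that on Pygb was lost. Phka1 was highest in con-named library 3, at 44.91 CPM against 36.16 to 38.58 CPM, and Pfkfb4 in HF-named library 2, at 6.664 CPM against 4.483 to 5.123 CPM.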

How the results depend on the processing

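Of the 2016 calls over all genes, 1252 were higher in HF-named libraries. Library totals gave 483 higher and 2582 lower (15.8% higher, against 62.1%) and, for the members, 2 higher and 13 lower. The replicate block gave 748 higher and 383 lower, with 2 members higher; same-numbered libraries did not deviate together (correlations -0.161 to 0.09), and 1 of 6 HF-named libraries matched its own number best. No filter beyond 1 count left 2 members higher. With single libraries left out, all genes gave 836 to 1581 higher and 500 to 969 lower, and members 2 to 8 higher and 3 to 4 lower. The log2 differences of ratios were then 0.19 to 0.30 for Hk2/Hk1, 0.12 to 0.19 for Ldha/Ldhb and -0.24 to -0.12 for Slc2a4/Slc2a1. The uncalled members with a change of sign were Hk1 (-0.10), Pfkp (-0.0172), Pgam1 (-0.0698), Gyg (-0.0817) and Pygm (-0.0764) under library totals; Slc2a4 (0.0048), Hk1 (-0.0204), Pfkm (0.0088), Aldoa (0.0417) and Pgk1 (0.0275) with the length offset; and, with single libraries left out, Slc2a4 (-0.0650 to 0.0097), Hk1 (-0.0183 to 0.0380), Pfkm (-0.0596 to 0.0087), Aldoa (-0.0398 to 0.0110), Pgam1 (-0.0008 to 0.0741) and Pfkfb4 (-0.10 to 0.0447). The causes were not tested. Depth limits members with few counts per library: Aldoc (0 to 6), the minor Aldoa identifier (1 to 14), Slc16a3 (28 to 50) and Pfkfb4 (69 to 125).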
